A study of Homo sapiens with 18 samples.

Results

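The regions described here were 697 windows of about 1 kb that lay far from any protein-coding promoter and held ATAC-seq signal in every library of 6 ovarian cancer cell lines. They were selected on the measured values: a window had to exceed 1.5 FPKM in each of 18 libraries, lie on chromosomes 1 to 22, and have its centre more than 5 kb from the start of every protein-coding transcript in GENCODE. FPKM is the number of reads in a window, scaled to its length and to the total reads of the library. Of 48406 distal windows of the table on these chromosomes, 697 (1.44%) met the rule. The table held 86965 windows on chromosomes 1 to 22 and 89428 in all. Each of these exceeded 2 FPKM in at least 2 libraries, so shares over the table are not shares over the genome. Since the levels chose the windows, their levels are given as a description with no test.

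The lines form 3 pairs in which a line sensitive to platinum drugs is matched with a resistant one, and each line has 3 replicate libraries. CP70 was derived in culture from A2780, which the labels describe as endometrial/ovarian. PEA1 and PEA2, and likewise PEO1 and PEO4, were established from high-grade serous tumours before and after clinical resistance appeared. All lines were grown in RPMI-1640 without drug treatment of the cells assayed here, and the labels do not say whether replicates were separate cultures, so p-values measure only the spread between these libraries. Each resistant line is a single line, so differences between the members of a pair are differences between lines.

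ATAC-seq marks open chromatin by where the Tn5 transposase can insert into DNA. Most open chromatin shared by unlike cell types lies at promoters, which are often CpG islands, stretches rich in the CG dinucleotide that is depleted elsewhere in the genome. Open sites away from promoters include enhancers, many bound by AP-1 and other factors that differ among cell types, and insulators bound by CTCF, a zinc finger protein that anchors chromatin loops. Non-coding RNA genes, such as those for the small nuclear RNAs of the spliceosome, have promoters of their own.

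Implied totals ran from 8963079 reads in a PEO1 library to 60435027 in an A2780 library, and the floor of 1.5 FPKM corresponded to 14 to 91 reads. Libraries differed in how much of their sequence fell in the windows of the table, from 8.38% in an A2780 library to 40.8% in a PEO1 library. FPKM is scaled to the whole library, so the floor was harder to pass in A2780 than in PEO1. All 3 A2780 libraries were over the floor in 1808 distal windows, of which 38.6% were among the 697, whereas in PEO1 29845 distal windows were over it and 2.34% of these were among the 697. A further 669 distal windows passed in 5 lines, and in 377 of them the line that failed was A2780. "Open in all lines" therefore means signal above this floor. In 8 of the 18 libraries, all of PEO1 and PEO4 and replicates 1 and 3 of PEA2, the floor lay under the median of the other distal windows, and in PEO1 replicate 1 31 of the 697 were below that median.

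Of the 8 windows with the highest signal in their lowest library 5 are shown, and of the 5 windows with the most even signal over the 6 lines 3 are shown, by the 150 bases at the centre of the window, on the plus strand of GRCh37, with every CG in capitals, because the 697 windows differed widely from other distal windows in CG content.
RNVU1-18 (chr1:149224025-149224174, plus strand): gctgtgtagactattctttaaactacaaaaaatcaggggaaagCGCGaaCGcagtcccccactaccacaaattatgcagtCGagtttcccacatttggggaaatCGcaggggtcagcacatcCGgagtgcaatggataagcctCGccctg
LINC02018 (chr3:75484325-75484474, plus strand): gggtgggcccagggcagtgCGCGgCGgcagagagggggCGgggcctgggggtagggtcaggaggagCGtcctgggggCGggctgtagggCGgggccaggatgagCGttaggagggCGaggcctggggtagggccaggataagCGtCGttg
LINC02021 (chr3:129830825-129830974, plus strand): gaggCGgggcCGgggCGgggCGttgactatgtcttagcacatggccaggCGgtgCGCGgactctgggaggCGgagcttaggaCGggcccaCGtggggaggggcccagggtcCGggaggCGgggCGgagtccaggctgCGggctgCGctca
Window 36.6 kb from TMEM106A (chr17:41400425-41400574, plus strand): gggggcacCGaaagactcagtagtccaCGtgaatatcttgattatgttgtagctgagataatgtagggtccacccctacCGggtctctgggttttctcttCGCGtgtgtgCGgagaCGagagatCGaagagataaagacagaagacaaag
Window 97.7 kb from SERTAD2 (chr2:64978625-64978774, plus strand): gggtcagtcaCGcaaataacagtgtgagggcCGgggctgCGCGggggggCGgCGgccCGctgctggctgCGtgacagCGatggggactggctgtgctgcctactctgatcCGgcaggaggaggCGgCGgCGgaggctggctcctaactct
LINC01703 (chr1:226271225-226271374, plus strand): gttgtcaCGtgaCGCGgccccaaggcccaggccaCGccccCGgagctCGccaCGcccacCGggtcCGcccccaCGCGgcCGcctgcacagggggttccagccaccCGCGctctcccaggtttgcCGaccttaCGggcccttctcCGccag
Window 55.2 kb from TLR5 (chr1:223255325-223255474, plus strand): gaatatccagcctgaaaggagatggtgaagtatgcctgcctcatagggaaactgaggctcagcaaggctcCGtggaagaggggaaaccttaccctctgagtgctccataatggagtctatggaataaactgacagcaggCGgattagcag
Window 29.6 kb from OAT (chr10:126077825-126077974, plus strand): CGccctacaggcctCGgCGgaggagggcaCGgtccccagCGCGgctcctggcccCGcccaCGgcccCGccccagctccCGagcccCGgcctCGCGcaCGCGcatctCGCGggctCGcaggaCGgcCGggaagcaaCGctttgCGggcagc
The whole window held 86 CG at LINC02018, 72 at LINC02021, 76 at the window 97.7 kb from SERTAD2 and 89 at LINC01703, and 26 at the window 55.2 kb from TLR5, which was not CpG-rich. The 2 most even windows not shown, at ENSG00000283427 and 56.3 kb from PWWP2B, held 13 and 56 CG and were not CpG-rich either. Other windows carried a CTCF consensus or the B box, letters of the internal promoter that RNA polymerase III uses in transfer RNA genes. Of the 3 highest of each kind that had no annotated transcript start within 1 kb, 2 are shown over 100 bases, on the strand of the match, with the match in capitals. These windows were picked after their values were seen.
CTCF window 112 kb from UBE2H (chr7:129465711-129465810, minus strand): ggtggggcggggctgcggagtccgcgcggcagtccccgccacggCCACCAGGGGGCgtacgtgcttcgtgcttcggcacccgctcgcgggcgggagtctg
CTCF window near ANKRD9 (chr14:102990940-102991039, plus strand): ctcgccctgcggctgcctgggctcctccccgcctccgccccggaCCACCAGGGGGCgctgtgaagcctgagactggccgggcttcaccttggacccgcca
B box window near ZNF692 (chr1:249168091-249168190, plus strand): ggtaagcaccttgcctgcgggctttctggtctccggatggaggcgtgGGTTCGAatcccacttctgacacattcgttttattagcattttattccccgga
B box window near PLLP (chr16:57333877-57333976, plus strand): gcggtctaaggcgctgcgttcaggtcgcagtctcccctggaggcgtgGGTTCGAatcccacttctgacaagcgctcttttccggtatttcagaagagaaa
Both CTCF windows held a single match. The B box windows near ZNF692 and PLLP held 2 matches each, and the stretches shown around them share the letters next to the match. A match is a description of letters and names neither a bound factor nor a gene.

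Most of the 697 windows had the base composition of promoters. CpG-rich windows, defined by over 50% GC and an observed to expected CpG ratio over 0.6, made up 67.3% of them (469 of 697, 95% Wilson interval 63.7 to 70.7), against 3.64% of the 47709 other distal windows. The share was 85.7% in the 8875 windows near a protein-coding start that were over the floor in all libraries. The median GC content was 60.7%, with quartiles of 54.95% and 66.7%, compared with 46.1% in other distal windows. Adjoining windows share sequence and signal, so the intervals cover counting error only.

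Starts of non-coding genes were also more frequent. The centre lay within 1 kb of the start of a basic non-coding transcript in 336 windows (48.2%, interval 44.5 to 51.9), compared with 7.95% of other distal windows. By the class of the centre, 598 windows were intergenic with respect to protein-coding genes, 87 intronic, 6 in a coding exon and 6 in a UTR exon, so 12.5% were intronic against 37.2% of other distal windows. The median distance to a protein-coding start was 29.3 kb, against 49.5 kb in other distal windows. Of the 697, 350 lay 10 to 50 kb from a start and 107 lay 5 to 10 kb away. Another 52 windows without such a start lay within 1 kb of some other transcript start, such as a non-coding transcript of a protein-coding gene.

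Placed in exclusive groups in this order, 336 windows were at a non-coding start, 52 at another transcript start, 29 held a CTCF consensus, 26 held a B box, 149 were CpG-rich with none of these, and 105 had none of these features. The windows at non-coding starts were CpG-rich in 75.9% of cases and had a median of 10.3 FPKM in PEO1 and 2.72 in A2780. The 105 windows without any feature had lower medians in the PEO lines, 5.33 FPKM in PEO1 and 3.75 in PEO4, and a similar one in A2780 (2.47). AP-1 letters were found in 28.6% of these 105 and in 11.6% of the windows at non-coding starts.

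The features followed the number of lines in which a distal window was over the floor. CpG-rich windows were 1.65% of the 21544 distal windows over it in 1 line, 5.35% in 3 lines, 11.2% in 4, 39.5% in 5 and 67.3% in 6. The share at non-coding starts went from 5.72% in 1 line to 36.9% in 5 and 48.2% in 6. The AP-1 heptamer TGACTCA went the other way at the upper end, with 36.7% in 1 line, 46.2% in 3, 45.7% in 4, 23.9% in 5 and 14.6% in 6. These shares are descriptions over windows, which are not replicates.

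**Figure D1:**
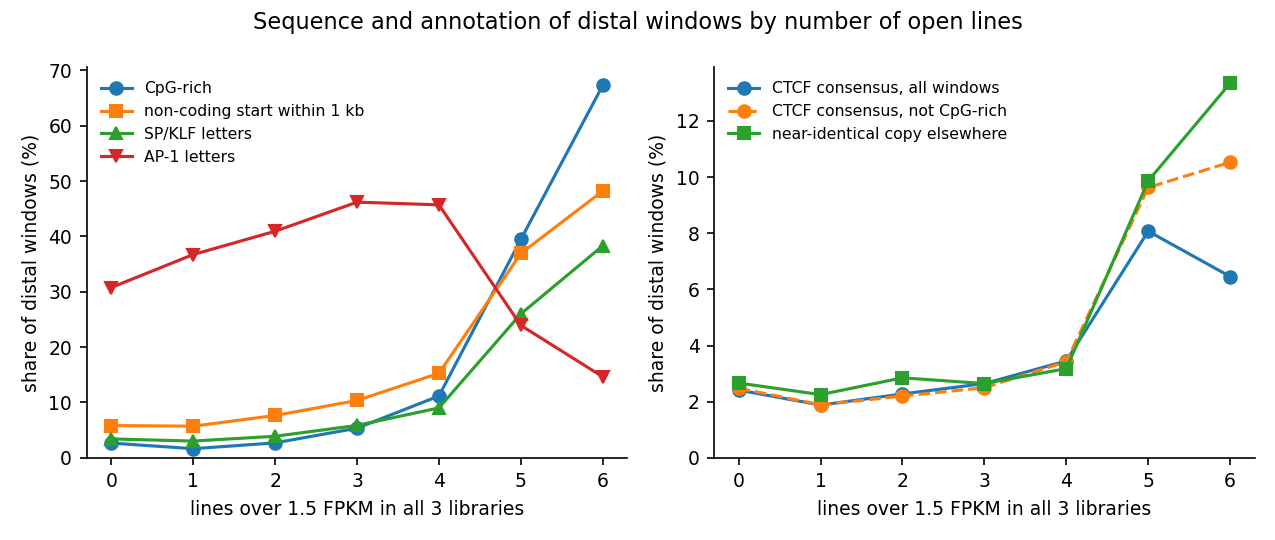
Share of the 48406 distal windows that are CpG-rich, lie within 1 kb of a non-coding start, or hold the SP/KLF or AP-1 letters (left), and that hold a CTCF consensus or have a near-identical copy elsewhere (right), in percent, by the number of lines with all 3 libraries over 1.5 FPKM. CpG-rich windows go from 1.65% at 1 line to 67.3% at 6, and AP-1 letters from 46.2% at 3 lines to 14.6% at 6.

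Letters of most factors that bind promoters were more frequent than in other distal windows. Motifs were sought on both strands in the whole window, and a window can hold several. The SP/KLF letters GGGGCGGGG are bound by zinc finger activators of CpG island promoters. They were in 38.3% of the 697 windows, 4.38% of other distal windows and 14.3% of all table windows on chromosomes 1 to 22. The NRF1 letters CGCATGCGC were in 3.59%, 0.239% and 1.00%, and the CREB letters TGACGTCA in 4.59%, 0.685% and 1.31%, in the same order. The ETS letters ACCGGAAG were in 3.73%, 0.908% and 1.81%. The YY1 letters AAGATGGCG were in 1.00%, 0.361% and 1.25%, and in 5.13% of the windows near a start that were over the floor. The ZNF143 letters ACTACAATT were in 0 of the 697, against 0.587% of other distal windows. Base composition moved with these shares. Among CpG-rich windows only, the SP/KLF letters were in 45% of the 469 members and 30.5% of the 1735 other distal windows, and the AP-1 letters in 9.81% and 10.6%.

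The CTCF consensus, of 12 letters, was in 45 of the 697 windows (6.46%, interval 4.86 to 8.53), against 2.31% of other distal windows and 1.94% of all windows. Among CpG-rich windows the shares were close, with 4.48% of the 469 members and 3.98% of other distal windows. Where CpG-rich windows were left out it was in 24 of 228 (10.5%, interval 7.18 to 15.2) against 2.25% of 45974. Distal windows over the floor in 5 lines held it in 8.07% of cases. In the stratum that was not CpG-rich, AP-1 letters were in 24.6% of the 228 and 40.4% of the others. With 1 mismatch allowed, the consensus was in 26.7% of the 697 and 13.8% of other distal windows. The B box letters GGTTCGA were in 45 windows (6.46%), against 1.42% of other distal windows and 2.31% of all windows. Among CpG-rich windows the B box shares were closer, with 5.97% of members and 3.98% of other distal windows. Where CpG-rich windows were left out they were 7.46% and 1.32%.

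Letters associated with lineage factors were less frequent than in other distal windows. RUNX letters (AACCACA) were in 10.9% against 20.9%, FOX letters (TGTTTAC) in 7.32% against 13.6%, GATA letters (AGATAAG) in 5.16% against 11.5%, SOX letters (CCATTGT) in 6.74% against 12.2% and TEAD letters (GGAATGT) in 11% against 17.8%. All of these motifs contain more A and T than the SP/KLF letters, and the difference in GC content moves with them. Among CpG-rich windows RUNX letters were in 7.46% of members and 8.88% of other distal windows, GATA letters in 3.62% and 5.65%, and TEAD letters in 9.17% and 9.39%. In that stratum FOX letters (8.10% and 6.46%) and SOX letters (7.04% and 5.88%) were more frequent in members, the opposite order to that over all windows. The part of base composition in these differences was not tested further.

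Of the 336 windows at non-coding starts, 266 were at long non-coding RNA genes (226 genes), 46 at pseudogenes, 14 at small nuclear RNA genes and 10 at other types. At pseudogenes 93.5% of the windows were CpG-rich. Among 48 non-coding RNA genes listed from knowledge of their function, 10 had a start within 1 kb of a member. Another 9 started within 5 kb of a protein-coding start and had no member. A further 19 had a window that did not meet the rule, and 10 were not analysed here. Among the 19, ZFAS1, LINC-PINT and OIP5-AS1 had a window over the floor in every library (lowest 2.84, 2.08 and 1.55 FPKM). Those windows failed on distance to a protein-coding start. The 10 genes with a member at their start were RN7SL2, VTRNA1-2, RNY3, DANCR, SNHG5, SNHG8, SNHG15, SNHG29, MIR17HG and KCNQ1OT1.

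The SNHG genes host small nucleolar RNAs in their introns. At SNHG5 (chr6:86388300-86389300) the libraries held 4.66, 6.33 and 4.58 FPKM for A2780, 12, 6.46 and 5.91 for CP70, 4.61, 5.83 and 3.84 for PEA1, 11.7, 8.67 and 9.94 for PEA2, 26.2, 27.4 and 25.9 for PEO1, and 21.2, 23.1 and 20.4 for PEO4. Every PEO library was above every library of the other 4 lines, and every PEA2 library was above every PEA1 library. This log2 fold change of 1.08 in PEA2 turned to -0.80 after the median change of all windows in its 5 Mb bin was subtracted. At SNHG8 (chr4:119199600-119200600) PEA2 was the lowest line, with 2.91, 1.79 and 2.62 FPKM, below 6.28, 6.42 and 4.94 in PEA1. SNHG15 (chr7:45026100-45027100) differed less within pairs, with 3.59, 3.4 and 3.93 FPKM in PEA1 and 3.35, 3.35 and 3.77 in PEA2.

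DANCR, a long non-coding RNA gene that also hosts small nucleolar RNAs, had 4.99, 6.71 and 4.98 FPKM in A2780 and 27.4, 31.4 and 31.4 in PEO1 (chr4:53577900-53578900). MIR17HG, the host transcript of a microRNA cluster, had 4.46, 6.2 and 4.31 FPKM in A2780, 4.70, 3.11 and 2.89 in CP70 and 12.4, 14.7 and 13.4 in PEO1 at its highest window (chr13:91999800-92000800). These CP70 values overlapped those of A2780. KCNQ1OT1, an imprinted antisense RNA within KCNQ1, lay in an intron of that gene, 77.6 kb from its nearest protein-coding start, and had 3.75, 3.33 and 3.21 FPKM in PEA1 and 11.2, 9.51 and 9.47 in PEO1 (chr11:2720700-2721700). Its PEA1 libraries were the lowest of the 18.

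Genes transcribed by RNA polymerase III were also present. RN7SL2, which encodes the RNA of the signal recognition particle, had 2.65, 2.97 and 2.05 FPKM in A2780, 7.88, 5.03 and 3.52 in CP70 and 13.2, 13.7 and 13.9 in PEO1. VTRNA1-2, a vault RNA gene, had 2.04, 2.12 and 1.88 FPKM in A2780 and 5.77, 6.37 and 6.13 in PEO1, and its window held the B box letters. RNY3, a Y RNA gene, had 6.81, 5.32 and 6.83 FPKM in PEA2 and 4.0, 5.30 and 3.31 in PEA1, so that the PEA2 libraries were all above those of PEA1, with 5.32 against 5.30 at the nearest. The log2 fold change of 0.59 turned to -0.76 after subtraction of the 5 Mb bin.

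The 14 windows at small nuclear RNA genes covered 12 genes, RNU5E-1, RNU1-2, RNVU1-6, RNVU1-8, RNVU1-18, RNU4ATAC, RNU6ATAC, RNU4-2, RNU6-7, RNU6-8, RNU5B-1 and RNU1-60P, which belong to the U1, U4, U5 and U6 families and to the U4atac and U6atac RNAs of the minor spliceosome. The RNVU1-18 window was the highest of all 697 in its lowest library, with 7.77 FPKM (chr1:149223600-149224600). The A2780 libraries held 9.10, 12 and 7.84 FPKM and the CP70 libraries 34.8, 21.0 and 18.6. Those of PEA1 held 10.3, 11 and 7.77, and those of PEA2 24.0, 17.0 and 18.9. Those of PEO1 held 53.5, 61.3 and 56.3 FPKM, and those of PEO4 32.9, 36.4 and 30.2. Within each pair the libraries of the lines did not overlap. The log2 fold change in CP70 was 1.32, and 0.26 after subtraction of the 5 Mb bin. At RNU4ATAC the line means were 4.15 ± 1.05 FPKM (SD, n = 3) in A2780, 3.43 ± 0.77 in PEA1 and 15.7 ± 1.19 in PEO1, and at RNU5E-1 they were 5.08 ± 1.25, 3.57 ± 0.90 and 14.2 ± 1.30. These genes belong to families with similar copies, and 7.14% of the 14 windows had a copy by the measure given next.

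Near-identical sequence elsewhere in GRCh37, of at least 500 aligned bases at 90% identity or more, was found for 93 of the 697 windows (13.3%), compared with 1269 (2.66%) of other distal windows. The authors state that only uniquely aligning reads were kept, so reads shared by copies may be missing and levels there are uncertain. The share rose with distance from protein-coding starts, from 3.74% of windows at 5 to 10 kb to 23.3% at 100 to 500 kb. Beyond 500 kb it was 28 of 36 windows (77.8%), and only 25% of the 36 were CpG-rich. Of these 36, 26 lay in a single stretch of chromosome 2 described below, 24 of them with a copy. Without the 93 windows, a choice made after the data were seen, 68.0% were CpG-rich, 44.9% lay at a non-coding start and 7.12% held a CTCF consensus. At pseudogene starts 54.3% of windows had a copy.

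In 34 windows the copy was itself one of the 697, which formed 8 families. The largest had 14 windows on 5 chromosomes, in 9 runs, all of them CpG-rich, aligned to each other at 90.01% to 96.2% identity, with a median of 93.2%. Its annotated genes included FAM86B3P, FAM86C2P, FAM86EP and FAM86GP, pseudogenes of the FAM86 family, and LINC02018 and LINC02021. Line means ran from 3.11 to 11.1 FPKM in A2780 and from 9.86 to 71.0 in PEO1. At LINC02018 (chr3:75483900-75484900) the libraries held 10.0, 13.6 and 9.75 FPKM in A2780 and 65.3, 71.3 and 76.6 in PEO1, and at LINC02021 (chr3:129830400-129831400) they held 7.64, 9.44 and 7.01 and 24.9, 25.3 and 25.4. A second family had 7 windows at LINC01409, SEPTIN7P9 and related genes, and another had 3 at ZNRF2P1 and ZNRF2P2.

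A single megabase, 91 to 92 Mb of chromosome 2, held 26 of the 697 windows among 57 distal windows, and 24 of the 26 had a copy elsewhere. Between chr2:91760400 and chr2:91848700 they formed 11 runs, the longest of 6 windows, and only 11.5% were CpG-rich. Medians of line means over the 26 were 2.84 FPKM (A2780), 3.99 (CP70), 3.03 (PEA1), 4.07 (PEA2), 2.35 (PEO1) and 2.38 (PEO4). In the PEO lines this was below the median of all 697, 8.95 and 7.77 FPKM, while in A2780 it was above it (2.64). The next densest megabase, 232 to 233 Mb of the same chromosome, held 10 windows in 6 runs near B3GNT7, NMUR1, TEX44 and PTMA, and its medians were 3.18 FPKM in A2780 and 11.4 in PEO1.

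By chromosome the share of distal windows among the 697 was highest on chromosomes 19 (3.26%, 23 windows) and 17 (2.76%, 40 windows) and lowest on chromosome 18, where 1 of 1235 distal windows qualified (0.081%). Chromosome 1 held 102 windows and chromosome 2 held 89.

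The 697 windows formed 539 runs of adjoining windows, of which 405 were single windows and 118 were pairs, and 292 windows lay in runs of 2 to 6. At 0.9 kb from the highest window of a run, the neighbouring window was in the table for 64.0% of runs on the lower-coordinate side and 62.9% on the other, and at 1.8 kb for 16.1% and 16.7%. In PEO1 the median level was 9.27 FPKM in the highest window and 3.8 and 3.88 in its neighbours, and in A2780 it was 2.69, 1.41 and 1.44. Centring on the highest window of a run fixes a maximum there. Neighbours without a row in the table have no value here, so these medians overstate the level beside a run.

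**Figure D2:**
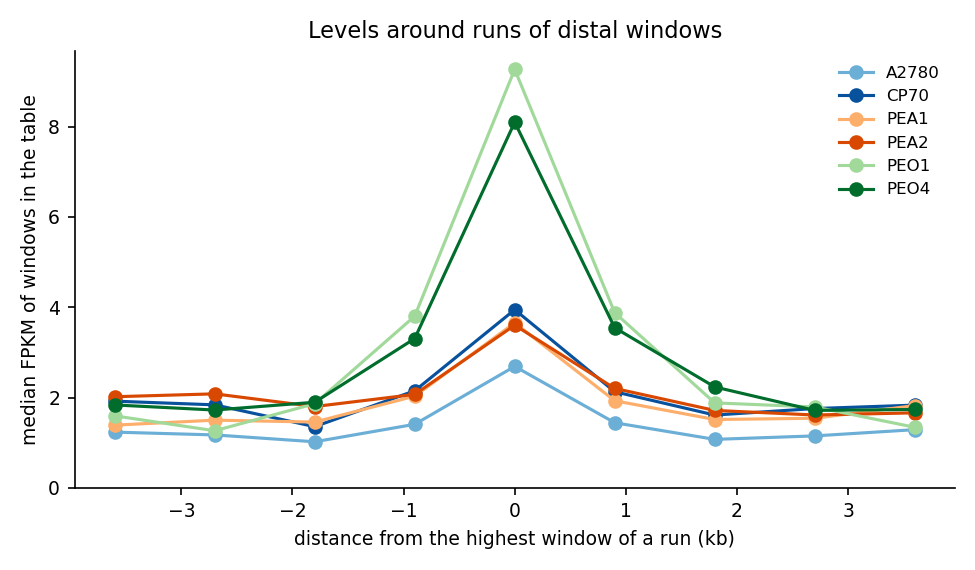
Median FPKM of the windows present in the table, by distance in kb from the highest window of each of 539 runs, with 1 line of points per cell line. The level in PEO1 goes from 9.27 FPKM at the centre to 3.8 and 3.88 at 0.9 kb, and in A2780 from 2.69 to 1.41 and 1.44.

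The level of the 697 windows differed among lines. The median of line means was lowest in A2780 (2.64 FPKM) and highest in PEO1 (8.95) and PEO4 (7.77), with CP70 (3.91), PEA1 (3.59) and PEA2 (3.52) between. The mean of the 3 library medians was 8.67 ± 0.43 FPKM (SD, n = 3) in PEO1 and 7.72 ± 0.52 in PEO4, and 3.90 ± 0.82, 3.62 ± 0.52 and 3.6 ± 0.19 in CP70, PEA1 and PEA2, which lay within each other's spread. PEO1 was the highest line in 361 windows and PEO4 in 242, while A2780 was the lowest in 403. The same order was seen near starts, where medians ran from 2.46 to 3.29 FPKM in A2780 and from 10.5 to 11.3 in PEO1. As a share of all reads in the table, the 697 windows took between 1.53% in a PEA2 library and 2.54% in a CP70 library. This share was 2.15%, 2.36% and 2.17% in A2780 and 1.84%, 1.89% and 1.85% in PEO1, the opposite order to FPKM.

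**Figure D3:**
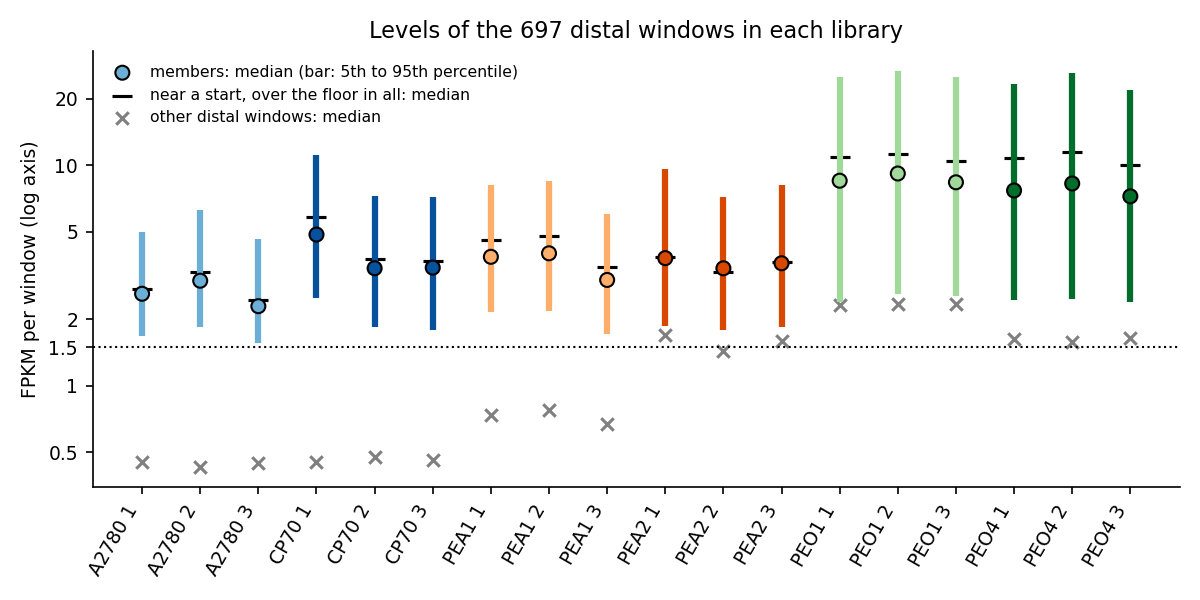
FPKM of the 697 windows in each of 18 libraries on a log axis, as the median (circle) with the 5th to 95th percentile (bar), beside the median of windows near a start that were over the floor in all libraries (dash) and of other distal windows (cross). The dotted line is the floor of 1.5 FPKM, and medians of the 697 lie between 2.30 FPKM in an A2780 library and 9.16 in a PEO1 library.

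When each library was centred on its own median over the 697 windows, the order among lines was spread more evenly. The highest line was then PEO4 in 180 windows, PEA2 in 140, CP70 and PEO1 in 98 each, A2780 in 95 and PEA1 in 86. The centred line means of a window spanned a median of 1.22 on the log2 scale. The median SD between replicates was 0.25, taken before centring, so it includes differences in level between replicate libraries. The centred line means spanned less than 1, or 2-fold, in 223 windows (32.0%) and more than 2 in 68 (9.76%). Across the 697 windows the Spearman correlation averaged 0.97 to 0.98 between replicate libraries of the PEO lines and 0.84 to 0.90 within each of the other lines. Between lines it averaged 0.82 for PEO1 and PEO4, 0.64 for A2780 and CP70 and 0.37 for PEA1 and PEA2, and was lowest, 0.28, for PEA2 and PEO4. Library pairs share libraries, and shared depth and copies enter these values.

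A few windows kept nearly the same FPKM in all lines. The most even was at LINC01703 (chr1:226270800-226271800), where the A2780 libraries held 3.85, 3.85 and 3.27 FPKM, those of CP70 4.70, 3.41 and 3.27, those of PEA1 4.33, 3.83 and 3.55, those of PEA2 3.85, 3.47 and 3.15, those of PEO1 4.55, 4.01 and 3.57, and those of PEO4 4.71, 4.75 and 3.89. The line means spanned 0.34 on the log2 scale, against a median of 1.97 over the 697. The PEO4 libraries lay just above all of those of A2780 and PEA2, and every other pair of lines overlapped. The other 4 of the 5 most even were a pseudogene start in the dense megabase of chromosome 2, with copies, and windows 56.3 kb from PWWP2B, 55.2 kb from TLR5 and 29.6 kb from OAT, all between 1.53 and 3.71 FPKM. Among the 8 windows highest in their lowest library, the window 36.6 kb from TMEM106A (chr17:41400000-41401000) was the most even, with 9.78, 8.07 and 6.35 FPKM in A2780 and 7.28, 8.11 and 5.91 in PEO1. Their level relative to the other windows was thus lower in the PEO lines, and with each library centred on its median the line means spanned 1.55 at LINC01703 and 1.86 at the window near TMEM106A.

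**Figure D4:**
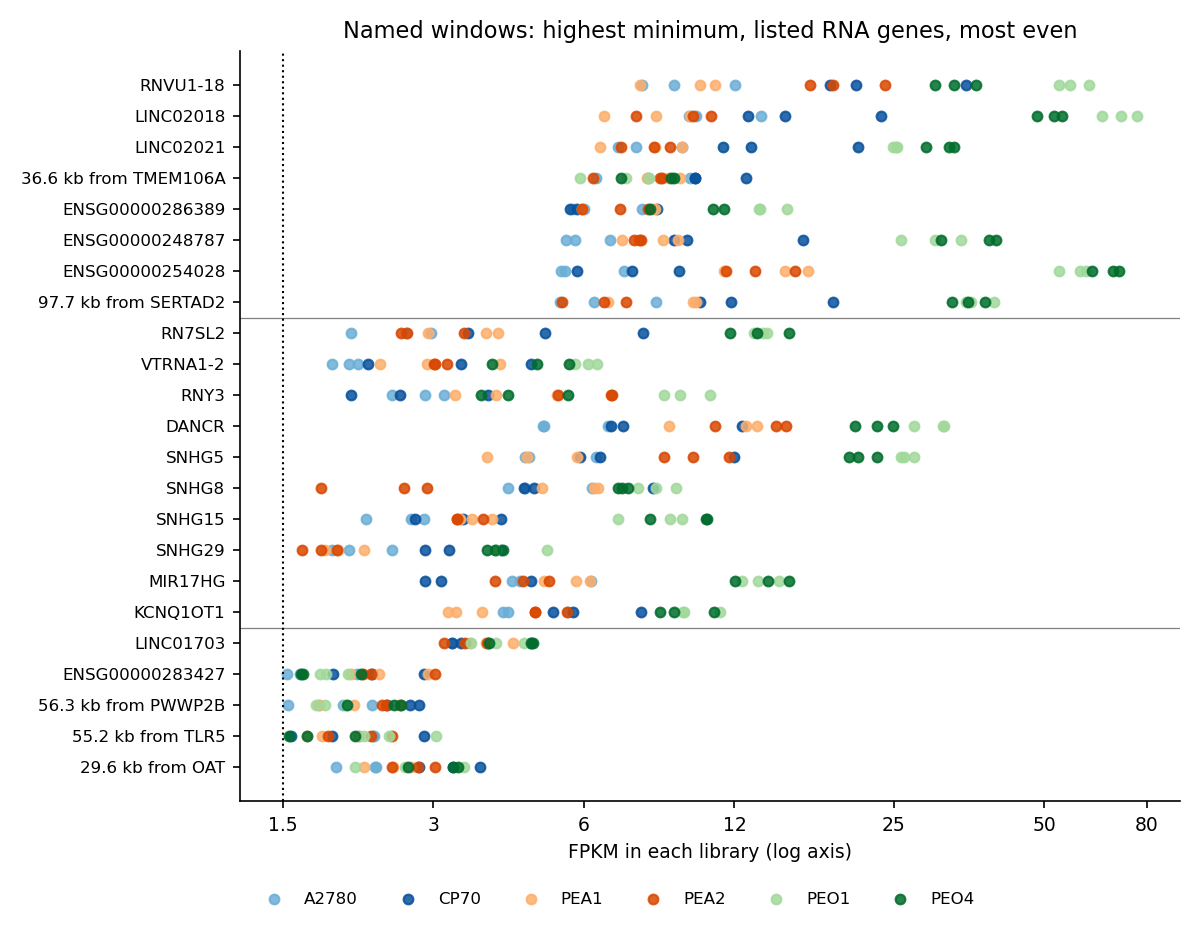
FPKM in each of 18 libraries (log axis, 1 point per library, coloured by line) for the 8 windows highest in their lowest library (top), the windows at 10 listed non-coding RNA genes (middle) and the 5 windows with the most even line means (bottom). The dotted line is 1.5 FPKM, and the RNVU1-18 window runs from 7.77 to 61.3 FPKM while the LINC01703 window stays between 3.15 and 4.75.

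Just inside the rule, 3 windows had a lowest library of 1.503 FPKM, at LINC01852, near ACOT11 and in MSRA. Just outside it were windows near GFPT1 (1.499 FPKM), at GHET1 (1.4965) and near MON2 (1.4965). The median over the 697 of the lowest library was 1.97 FPKM, 88 windows exceeded 3 FPKM in all libraries and 10 exceeded 5.

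How far these windows changed between the sensitive and the resistant line of a pair was examined with limma on log2(FPKM + 0.1). The floor applies to both lines and bounds the fold change. Counts of calls are therefore set beside those over all windows tested, and nothing is read from the difference. The log2 fold change was under 1 in size in 638 of 697 windows (91.5%) in CP70 against A2780, in 619 (88.8%) in PEA2 against PEA1 and in 642 (92.1%) in PEO4 against PEO1. This share was not taken over all windows, so it is not read as a trait of the 697. Past 1 with adjusted p under 0.05 by limma, 11.4%, 29.7% and 9.63% of all windows were higher, in the same order. Those lower were 1.1%, 9.27% and 23.6%. The median log2 fold change of the 697 was 0.53, -0.01 and -0.11, beside 0.59, 0.31 and -0.30 over all windows tested. FPKM is scaled to the library total, and whether the medians over all windows follow that scaling was not tested. Centring, which brings the libraries to the same median by construction, took the medians of the 697 to -0.05, -0.38 and 0.24. Subtracting the median of the 5 Mb bin took the SD of the log2 fold change among the 697 from 0.40 to 0.33, from 0.63 to 0.49 and from 0.57 to 0.42.

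A window was called past a log2 fold change of 2 with a Benjamini-Hochberg adjusted p under 0.001. Every window past that fold change also passed the p threshold in each pair, in 296, 8374 and 6594 windows, so the fold change alone decided the calls. The highest adjusted p among them was 2.6e-07, 1.3e-09 and 0.00049. The moderated spread rested on 148512 and 264412 degrees of freedom in the A2780 and PEA pairs, pooled over windows of like level, and on 38.3 in the PEO pair, so the adjusted p of a single window carries little of the spread of its own 3 replicates. The library values are therefore given.

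In CP70 against A2780 1 window was called, higher in CP70, beside 0.428% of all windows called higher and 0.369% lower. It lay in an intron of DDAH1, which encodes an enzyme that degrades an inhibitor of nitric oxide synthase, 56.6 kb from its nearest protein-coding start (chr1:85986900-85987900). The window was in the group within 1 kb of some other transcript start. It held 1.52, 1.58 and 1.52 FPKM in A2780 and 19.5, 8.74 and 9.72 in CP70. The log2 fold change was 2.87 with an SE of 0.30 (adjusted p = 5.2e-19 by limma and 4.5e-15 by edgeR). The 2 lines did not overlap, and the A2780 libraries were close to the floor. At a log2 fold change of 1 with adjusted p under 0.05, 58 of the 697 were higher and 1 lower, beside 11.4% and 1.1% of all windows. The 58 rested on single libraries: without CP70 replicate 1 they were 16, without A2780 replicate 3 they were 34, and without A2780 replicate 2, CP70 replicate 2 or CP70 replicate 3 they were 94, 96 and 103. With median centring 5 were higher and 11 lower, beside 1.38% and 3.41% of all windows under that centring. All CP70 libraries were above all A2780 libraries in 358 windows and below them in 10, beside 56.2% and 2.84% of all windows.

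The window with the next largest rise in CP70 was at GASAL1, a long non-coding RNA gene, with 2.07, 2.14 and 1.90 FPKM in A2780 and 8.86, 7.0 and 5.36 in CP70. Among windows with all CP70 libraries lower, the largest change was 35.0 kb from BAALC, with 3.75, 5.75 and 4.02 FPKM in A2780 and 2.58, 1.80 and 1.80 in CP70, and the next was a second window of MIR17HG, 0.9 kb from the one given above, with 3.49, 4.62 and 3.45 against 2.80, 1.56 and 1.84. Neither passed a log2 fold change of 2. The MIR17HG change was -0.90 ± 0.27 as deposited and -0.41 after subtraction of its 5 Mb bin.

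In PEA2 against PEA1 3 windows were called, all higher in PEA2, beside 11.2% of all windows called higher and 1.42% lower. The largest change was in the dense megabase of chromosome 2 (chr2:91786500-91787500), a window with a near-identical copy elsewhere, which held 3.56, 3.12 and 3.36 FPKM in PEA1 and 24.1, 15.8 and 21.3 in PEA2 (log2 fold change 2.56 ± 0.24). The second was at ENSG00000261842, a long non-coding RNA gene 38.5 kb from ZNF777 (chr7:149119200-149120200), with 3.11, 4.21 and 2.45 FPKM in PEA1 and 18.2, 16.1 and 18.9 in PEA2 (2.44 ± 0.23). After its 5 Mb bin was subtracted this change was 1.09. The remaining one lay 32.1 kb from TP53TG3B (chr16:33293700-33294700), with 2.08, 2.31 and 1.97 FPKM against 7.86, 9.25 and 10.4 (2.06 ± 0.23). In none of the 3 did the lines overlap. With median centring 2 windows were called higher and 2 lower, beside 6.91% and 2.72% of all windows.

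At the lower thresholds 41 windows were higher and 37 lower in PEA2, beside 29.7% and 9.27% of all windows. Without PEA1 replicate 3 these were 29 and 61, and without PEA2 replicate 1 they were 29 and 39. Without PEA1 replicate 1 or 2 they were 47 and 29, and 52 and 30. Without PEA2 replicate 2 or 3 they were 59 and 39, and 40 and 38, so the balance rested on single libraries. With median centring they were 15 and 105, beside 21.6% and 17.96% of all windows under that centring. All PEA2 libraries were above all PEA1 libraries in 172 windows and below them in 163, beside 44.1% and 22.2% of all windows. The largest falls among windows whose libraries did not overlap were 53.3 kb from C4orf51, from 8.20, 8.54 and 5.61 to 2.09, 2.02 and 2.22 FPKM, and in an intron of MNT, which encodes a MAX-binding repressor, from 10.5, 10.6 and 7.53 to 3.19, 2.60 and 2.97. Their log2 fold changes were -1.75 ± 0.23 and -1.67 ± 0.23, and -0.69 and -0.24 after subtraction of the 5 Mb bin.

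In PEO4 against PEO1 1 window was called, lower in PEO4, beside 2.72% of all windows called higher and 5.78% lower. It was a CpG-rich window 5.24 kb from the nearest start of MECOM, which encodes a zinc finger transcription factor (chr3:169386300-169387300). It held 13.4, 13.0 and 15.3 FPKM in PEO1 and 2.56, 3.17 and 3.54 in PEO4. The log2 fold change was -2.14 ± 0.14 (adjusted p = 8.7e-16 by limma and 5.1e-46 by edgeR). With centring the change was -1.80, and after subtraction of the 5 Mb bin it was -0.33. At the lower thresholds 23 windows were higher and 32 lower, beside 9.63% and 23.6% of all windows. With median centring these were 55 and 13, beside 15.0% and 15.1% of all windows under that centring. All PEO4 libraries were above all PEO1 libraries in 142 windows and below them in 277, beside 22.2% and 47.1%.

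Next to this window in size was 1 in an intron of SLC38A8, 16.0 kb from NECAB2 (chr16:84047400-84048400), with 8.70, 11.3 and 12.5 FPKM in PEO1 and 2.56, 2.54 and 2.79 in PEO4, and, in the opposite order, 2.18, 2.06 and 1.68 in PEA1 and 7.25, 6.36 and 6.26 in PEA2. Its log2 fold change was -1.99 ± 0.15 in the PEO pair and 1.70 ± 0.23 in the PEA pair, and -1.48 and 0.60 after subtraction of the 5 Mb bin. Rises were largest 26.2 kb from AL021920.2, from 2.33, 1.92 and 2.56 to 6.74, 8.30 and 7.57 FPKM, at a window with a copy elsewhere, and 12 kb from CD300A, from 7.69, 6.81 and 6.80 to 21.4, 26.7 and 20.2. Neither pair of lines overlapped there, and after subtraction of the 5 Mb bin the changes were 1.53 and 0.79.

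**Figure D5:**
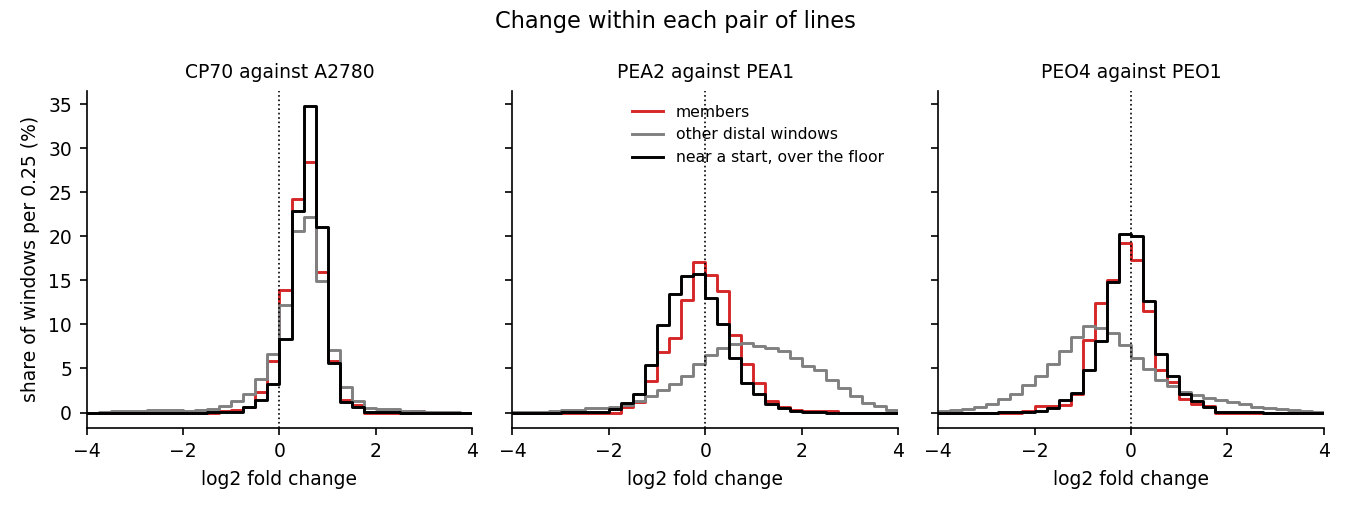
Distribution of the log2 fold change, as percent of windows per 0.25, in CP70 against A2780, PEA2 against PEA1 and PEO4 against PEO1, for the 697 windows (red), other distal windows (grey) and windows near a start over the floor in all libraries (black). In the PEA pair the median is -0.01 for the 697 and 0.97 for other distal windows, and the floor in both lines bounds the red and black curves.

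Of the CTCF windows whose letters were printed above, the highest lay 112 kb from UBE2H. It held 3.89, 4.33 and 3.92 FPKM in A2780 against 9.77, 6.58 and 6.32 in CP70, 6.86, 6.48 and 4.65 in PEA1 against 5.83, 6.36 and 6.30 in PEA2, and 19.4, 19.8 and 20.6 in PEO1 against 21.0, 26.2 and 19.8 in PEO4. Within the PEA and PEO pairs these libraries overlapped, and the CP70 libraries were all above those of A2780. Of the B box windows, the one 14.9 kb from ZNF692 held 31.5, 31.7 and 27.6 FPKM in PEO1 and 9.94, 10.4 and 10.5 in PEO4, a log2 fold change of -1.55 ± 0.10 as deposited and 0.09 after subtraction of its 5 Mb bin. The window 15.5 kb from PLLP held 7.79, 7.42 and 8.02 FPKM in PEO1 against 6.45, 6.24 and 5.83 in PEO4. In neither did the lines of this pair overlap.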

How the data were processed

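ATAC-seq libraries of 6 lines were taken from a table of windows, with 18 sample columns grouped by the labels, and 0 columns were left unused. The authors aligned reads to hg19 with Bowtie2, kept uniquely aligning reads, filtered blacklisted regions and removed duplicates with Picard. They counted reads in 1 kb windows with featureCounts, and versions are not given in the sources used here. The authors deposited FPKM from edgeR's rpkm function, and as all windows have the same length these are RPM values. Windows were 1001 bases long in steps of 900 bases, and the steps matched GRCh37 at 23 of 23 chromosomes. In 100% of values of each library whole reads could be recovered to within 0.01 read, from which totals were taken. As the libraries carry no molecular identifiers, the floors are in reads and not in molecules. The Wilson intervals are over counts of windows and cover counting error only.

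Genes were those of GENCODE 44 mapped to GRCh37. The CTCF consensus and 16 shorter motifs were sought on both strands. Copies elsewhere were found with minimap2 2.31. Each pair was fitted with limma 3.58.1 (R 4.3.3) with a mean-variance trend on log2(FPKM + 0.1), over windows with a mean above 1 FPKM in the 6 libraries. edgeR 4.0.16 and DESeq2 1.42.0 were run on recovered reads. The fits were tested on simulated data. Differences between pairs were fitted over 12 libraries. The study's upper limit on depth was not applied in the main analysis.

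The windows named were the 8 highest in their lowest library, 2 per pair and direction with the largest change among those with no overlap of libraries, the 5 most even over lines, those at 48 listed non-coding genes, and 3 on each side of the floor. All called members are also named, and the CTCF and B box windows were added after values were seen. The members, lists and rules were chosen with earlier results of these data known. A window of each of these kinds is not reported here.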

Additional observations from a re-analysis of the deposited data

Results flagged for a closer look

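The change within a pair differed from that of another pair, by a limma test of the difference of log2 fold changes over 12 libraries (past 2 in size with adjusted p under 0.001), in 8 of the 12 windows with the largest changes. These windows were picked for their change in 1 pair, and the pooled spread described in the report applies. These differences were not tested after subtraction of the median change of the 5 Mb bin, and their values after it are given in the same order. At DDAH1 the CP70 change exceeded that of PEA2 by 2.95 ± 0.36 (SE) and that of PEO4 by 3.69 ± 0.31 (2.30 and 2.59 after subtraction). At GASAL1 the CP70 change exceeded that of PEA2 by 2.73 ± 0.38 (1.98). At chr2:91786500-91787500 the PEA2 change exceeded that of PEO4 by 4.41 ± 0.25 (4.02), and at ENSG00000261842 it exceeded those of CP70 and PEO4 by 2.37 ± 0.35 and 3.44 ± 0.24 (1.42 and 0.95).

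Near C4orf51 the PEA2 change less that of CP70 was -2.06 ± 0.35 (-0.54), and in MNT the PEA2 change less those of CP70 and PEO4 was -2.43 ± 0.36 and -2.15 ± 0.25 (-0.33 and -0.58). Near MECOM the PEO4 change less those of CP70 and PEA2 was -2.12 ± 0.29 and -2.78 ± 0.26, but -0.07 and 0.26 after subtraction, so that the second turned in direction. Near NECAB2 the PEO4 change less that of PEA2 was -3.69 ± 0.26 (-2.08), where all PEO4 libraries were lower and all PEA2 libraries higher than those of their sensitive line. Copy number and sequence copies were not tested as sources of these differences.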

How the results depend on the processing

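The number of windows moved most with the rule: 1809 at over 1 FPKM, 336 at over 2 FPKM, 1367 with libraries scaled to the same median, and 209 when starts of all transcripts counted. Leaving out a replicate of every line gave 738 to 905. The CTCF share was 3.30% in the central 500 bases and 26.7% with 1 mismatch, the share at non-coding starts 41.2% within 500 bases, and the CpG-rich share 46.9% at the stricter limit. The share without repeats was not run, as the reference carries no repeat marking.

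Calls at the lower thresholds were 59, 78 and 55 in the CP70, PEA2 and PEO4 comparisons, beside the shares of all windows given above. The study's upper depth limit left 343, 272 and 326 of the 697 windows, with 0 called in each. Over all windows under that limit, 138 were higher and 134 lower of 30417, 6825 and 830 of 54602, and 2068 and 4346 of 65683. The PEA2 count was 1 after subtraction of the 5 Mb bin, beside 2499 higher and 749 lower of 66103 windows. The PEO4 count was 0 with a pseudocount of 1, with quantile normalization and after bin subtraction. Of all 77654 windows, 216 were then higher and 617 lower, 3165 and 2595, and 2242 and 1510, in that order. With median centring the PEO4 count was 3 (all higher, where the deposited values gave 1 lower), beside 4.19% of all windows higher and 3.25% lower. It was 2 with edgeR and with DESeq2, beside 2300 higher and 5224 lower, and 2326 and 5309. Leaving out a replicate gave 1 to 1 in CP70, 2 to 4 in PEA2 and 1 to 2 in PEO4, where the 2 came without PEO1 replicate 1 or PEO4 replicate 3. A replicate block gave the same 1, 3 and 1. In a balanced design it cannot move a fold change, and the fold change alone decided the calls, so these counts do not test the pairing. Deviations of same-numbered libraries correlated between -0.41 and 0.04. In the PEO pair they were all positive, and the best partner of each library had the same number. In the A2780 and PEA pairs it never did. With 3 libraries per line, deviations from the line mean cannot show whether the numbers pair the samples. FPKM from 14 reads at the floor in PEO1 is less precise than from 91 in A2780.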
